A study of Neotoma lepida with 16 samples.

Results

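The genes described here encode amylases and the digestive enzymes of the pancreas, measured in the liver of desert woodrats (*Neotoma lepida*). They are 10 names: the amylases Amy1 and Amy2, the elastases Ela1 and Ela2, the carboxypeptidases Cpa1 and Cpb1, chymotrypsinogen Ctrb1, trypsinogen Prss1, and the lipases Pnlip and Cel. A probe was a member when the gene name printed for it on the array, without the suffix "_predicted", was one of these names. This found 12 of the 41012 probes of the array, for 9 of the 10 names; Amy2, Ela1 and Ela2 had 2 probes each and Ctrb1 had none. The names were chosen by measured values of these same arrays, the creosote minus juniper differences of the amylases, to look at liver amylase beside the enzymes of the pancreas. The diet differences of the members are therefore descriptions without a test.

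The animals were wild caught in the Great Basin or in the Mojave desert, lived in captivity for 3 months on rabbit chow, and then ate chow with rising amounts of plant material for 5 days. The plant was creosote bush for 4 Great Basin animals (2 males and 2 females) and 4 Mojave animals (all male), and juniper for 4 Great Basin and 4 Mojave animals (2 males and 2 females each). All 16 animals thus shared the captivity and the chow, and no group ate chow alone, so "higher on creosote" can equally be read as "lower on juniper". Each array carried the labelled RNA of 1 animal in red (Cy5) against an equimolar pool of all 16 animals in green (Cy3), and values are log2 ratios of animal over pool. The probes are of rat sequence. How well each binds the woodrat transcript, and whether related probes bind separate transcripts, was not examined, so no probe's level is set against another's.

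Amylase cuts starch and glycogen into short sugars. In rat and mouse, Amy1 is transcribed in the parotid gland and in liver, and Amy2 in the acinar cells of the pancreas. The acinar cells also make lipases that digest dietary fat. They make the precursors of trypsin, chymotrypsin, elastase and the carboxypeptidases, which digest protein in the gut. Hepatocytes are known for Amy1 but not for these proteases.

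Over the 16 arrays, 45.6% to 75.8% of the probes were well above background in red, with slide 1 the dimmest (a mean of 48.5%, against 65.5% to 71.3% for the remaining 3 slides). Every slide carried 1 animal of each group, always at the same place: Great Basin creosote at position 1, Mojave creosote at 2, Mojave juniper at 3 and Great Basin juniper at 4. Position and group cannot be told apart. Of 15 hepatocyte markers on the array 13 were tested, and albumin (Alb), fibrinogen (Fgb) and Ambp were well above background on 16 of 16 arrays. One array stood apart for part of the members: that of the second Mojave male on creosote, called Mojave creosote 2. The diet differences it touches are given with and without it.

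Of the 3 amylase probes, the 2 bright ones had the widest gaps between the diets among the members. Both amylase probes were higher in every animal on creosote than in any animal on juniper, in both populations. The size of the difference was 1.59 to 2.23 on the log2 scale, or 3.01-fold to 4.68-fold. Ela1 and Cel also separated the diets, in Great Basin and by smaller amounts given with each.

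The Amy1 probe (A_44_P435713, for transcript NM_001010970, annotated as salivary amylase 1) was well above background on 16 of 16 arrays. In Great Basin animals on creosote its log2 ratios were 1.11 and 1.31 in the males and 0.21 and 0.50 in the females (mean 0.78 ± 0.51, SD, n = 4). On juniper they were -0.97 and -0.35 in the females and -0.75 and -1.14 in the males (mean -0.81 ± 0.34, SD, n = 4). The lowest creosote animal lay above the highest juniper animal, and the females were the lower pair on creosote. In Mojave males on creosote the ratios were 1.29, 0.74, 0.55 and 1.01 (mean 0.90 ± 0.32, SD, n = 4). On juniper they were -0.80 and -0.58 in the males and -1.39 and -1.20 in the females (mean -0.99 ± 0.37, SD, n = 4). Here too the diets did not overlap, and the females were the lower pair on juniper.

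The difference of Amy1 between creosote and juniper, fitted with a term for sex, was 1.59 ± 0.22 in Great Basin (SE, n = 4 per group) and 1.70 ± 0.24 in Mojave. Between animals of the same slide it ranged from 1.36 to 1.86 in Great Basin and from 1.33 to 2.20 in Mojave, with creosote higher on 4 of 4 slides in each. Without Mojave creosote 2 the Mojave difference was 1.75 ± 0.26.

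The brighter of the 2 Amy2 probes is named Amy2_predicted (A_44_P161473, for XM_345278). Its annotation reads as a locus similar to amylase 1, so its description points to an amylase 1 type of transcript although its symbol is Amy2. It was well above background on 16 of 16 arrays, with net red signals from 15491 to 173970. In Great Basin animals on creosote the log2 ratios were 1.15 and 1.51 in the males and -0.0045 and 0.57 in the females (mean 0.81 ± 0.67, SD, n = 4). On juniper they were -1.46 and -0.58 in the females and -0.92 and -1.38 in the males (mean -1.09 ± 0.41, SD, n = 4). The order of the animals was much as for Amy1, with the creosote females again below the creosote males. In Mojave males on creosote they were 1.55, 1.03, 0.78 and 1.03 (mean 1.10 ± 0.32, SD, n = 4). On Mojave juniper they were -1.04 and -1.05 in the males and -1.84 and -1.67 in the females (mean -1.40 ± 0.42, SD, n = 4).

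This probe was higher on creosote by 1.89 ± 0.25 in Great Basin (SE, n = 4 per group; 1.38 to 2.09 within slides) and by 2.23 ± 0.27 in Mojave (2.07 to 2.70 within slides). Creosote was higher on 4 of 4 slides in both populations. Without Mojave creosote 2 the Mojave difference was 2.25 ± 0.30.

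**Figure D1:**
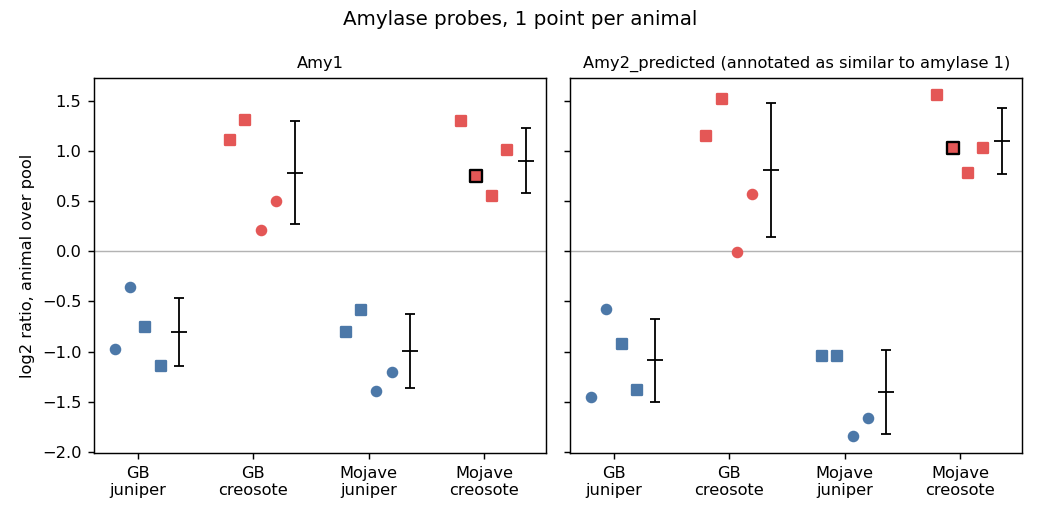
Log2 ratio of animal over pool (vertical axis) for the Amy1 probe (left) and the Amy2_predicted probe (right), by group (horizontal axis; GB, Great Basin). Squares are males, circles are females, the black edge marks Mojave creosote 2, and bars are group means ± SD (n = 4); no creosote animal is as low as any juniper animal of its population.

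Diet groups that did not overlap were not rare on these arrays: 10.3% of all genes in Great Basin and 16.4% in Mojave separated the diets in one direction or the other. By the fit over all genes, 4.00% of genes passed an adjusted p of 0.05 for diet in Great Basin and 9.54% in Mojave. Counted by direction, 5.00% and 7.21% of genes separated the diets with creosote above juniper, and the calls were 2.07% higher and 1.94% lower in Great Basin and 3.82% higher and 5.72% lower in Mojave. These shares are the background of the diet comparison, and since diet chose the members nothing is read from the members' own count.

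Amy1 and Amy2_predicted went together within each diet. Over the 8 creosote animals Pearson's r between their log2 ratios was 0.96 (exact permutation test, two-sided, p = 9.92e-05, adjusted 0.000198 over 2 correlations) and Spearman's rho was 0.98 (exact permutation p = 0.000397, adjusted 0.000794). Over the 8 juniper animals r was 0.96 (exact permutation p = 0.000794, adjusted 0.000794) and rho was 0.90 (exact permutation p = 0.00456, adjusted 0.00456). Without the 2 animals farthest from the median r was 0.94 on creosote and 0.88 on juniper. A slide held too few animals for a value of its own. Each diet holds both populations and both sexes, and the probes may bind the same woodrat transcripts, which was not tested.

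Neither probe passed the threshold between the populations. On juniper, Mojave minus Great Basin was -0.19 ± 0.22 for Amy1 (SE, n = 4 per group; limma, adjusted p = 0.89) and -0.32 ± 0.25 for Amy2_predicted (limma, adjusted p = 0.802). On creosote it was -0.08 ± 0.24 for Amy1 (limma, adjusted p = 0.925) and 0.02 ± 0.27 for Amy2_predicted (limma, adjusted p = 0.986). The Mojave diet difference minus the Great Basin one was 0.11 ± 0.32 for Amy1, with a 95% interval from -0.58 to 0.80 (limma, adjusted p = 0.929). It was 0.34 ± 0.37 for Amy2_predicted, with an interval from -0.44 to 1.12 (limma, adjusted p = 0.755). The intervals are wide: they leave room for diet differences that are unequal by up to 1.12 on the log2 scale.

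Males had higher values than females by 0.39 ± 0.18 for Amy1 and 0.54 ± 0.20 for Amy2_predicted. At unadjusted p-values of 0.0473 and 0.0178 by limma, both had an adjusted p of 0.994 over all probes and so failed the correction. In the Great Basin juniper group the sexes interleaved on both probes.

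The second Amy2 probe (A_44_P179767, for NM_031502, annotated as pancreatic amylase 2) showed another pattern. It was dim, well above background on 8 of 16 arrays, and it did not separate the diets. In Great Basin its log2 ratios were -0.25, -0.01, -0.25 and -0.06 on creosote and -0.18, -0.38, -0.08 and -0.28 on juniper. In Mojave they were -0.09, 2.95, -0.55 and -0.24 on creosote and -0.27, -0.17, -0.09 and -0.41 on juniper. All values except that of Mojave creosote 2 lay below 0, and this animal stood 7.78-fold above the next highest. Its net red signal was 1159, against at most 39.2 on the other 15 arrays.

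The diet difference of the pancreatic Amy2 probe was 0.09 ± 0.52 in Great Basin and 0.73 ± 0.56 in Mojave (SE, n = 4 per group). Without Mojave creosote 2 the Mojave value was -0.08 ± 0.12. The difference between the populations' diet differences was 0.64 ± 0.77 (limma, adjusted p = 0.783), and -0.17 ± 0.16 without that animal (limma, adjusted p = 0.744). On the amylase 1 type probes the same animal was unremarkable, at 0.74 for Amy1 and 1.03 for Amy2_predicted, each rank 3 of 4 in its group.

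Among the proteases that trim the ends of proteins, carboxypeptidase B (Cpb1, A_43_P11449) repeated the pattern of the pancreatic Amy2 probe. It was well above background on 16 of 16 arrays. Its log2 ratios in Great Basin were 0.25, 0.01, -0.25 and -0.05 on creosote and -0.21, -0.11, 0.05 and -0.36 on juniper. In Mojave they were -0.25, 2.62, 0.07 and -0.07 on creosote and 0.23, -0.14, -0.15 and -0.16 on juniper. Mojave creosote 2 was 5.16-fold above the next highest animal, and the diets otherwise overlapped. Its net red signal for Cpb1 was 1120, against 31.0 to 99.7 on the other arrays.

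The diet difference of Cpb1 was 0.15 ± 0.44 in Great Basin and 0.57 ± 0.48 in Mojave, or -0.11 ± 0.13 in Mojave without Mojave creosote 2 (SE). The interaction was 0.42 ± 0.65 (limma, adjusted p = 0.842), and -0.26 ± 0.17 without that animal (limma, adjusted p = 0.605). Carboxypeptidase A (Cpa1), the partner enzyme with a preference for other residues, was at the edge of detection, above background on 6 of 16 arrays and on 0 of the 4 Great Basin creosote arrays. Its ratios lay between -0.16 and 0.24, and no fold is given for Great Basin. Mojave creosote 2 was at 0.05 for Cpa1, rank 11 of 16. This place depended on the processing: in the deposited ratios it was the highest array, at 2.47 against at most 1.78 elsewhere. Its net red signal for Cpa1 was 16.6, against 8.10 to 30.1 on the other arrays. The Mojave diet difference of Cpa1 was 0.00, and 0.76 in the deposited ratios.

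The pancreatic elastase Ela2 (A_44_P405177) was also highest in Mojave creosote 2, by a smaller margin. Its log2 ratios were 0.29, 0.03, 0.57 and 0.02 on Great Basin creosote, -0.01, -0.14, 0.22 and 0.03 on Great Basin juniper, -0.26, 1.14, 0.25 and 0.11 on Mojave creosote, and 0.18, -0.04, -0.22 and -0.04 on Mojave juniper. Mojave creosote 2 was 1.49-fold above the next animal, Great Basin creosote 3, and its net red signal was 556 against 102 to 312 elsewhere. The Mojave diet difference was 0.29 ± 0.24 with it and 0.02 ± 0.16 without it, and the Great Basin difference was 0.20 ± 0.22 (SE). The other probe under the name, Ela2_predicted, is annotated as neutrophil elastase, a different gene of white blood cells. It differed by -0.07 in Great Basin and -0.04 in Mojave, and Mojave creosote 2 was at 0.00.

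Elastase 1 (Ela1) did not repeat that pattern. On its bright probe (A_44_P1050595) the log2 ratios were 0.49, 0.59, 0.45 and 0.59 on Great Basin creosote and 0.35, 0.39, 0.20 and 0.31 on Great Basin juniper. They were 0.48, 0.38, 0.80 and 0.35 on Mojave creosote and -0.23, 0.38, -0.57 and -0.12 on Mojave juniper. The Great Basin diets did not overlap, though the gap was smaller than the spread within either group, and in Mojave 1 juniper male lay among the creosote animals. Mojave creosote 2 was in the middle, at rank 9 of 16. The diet difference was 0.22 ± 0.15 in Great Basin (0.14 to 0.29 within slides) and 0.59 ± 0.16 in Mojave (-0.00 to 1.37 within slides). Centring each array on its median instead of loess brought the Mojave value to 0.16, leaving out slide 1 gave 0.37, and the mean of both probes gave 0.30, while the dim second probe for the same transcript gave 0.07 and 0.02. Mojave juniper lay below Great Basin juniper on the bright probe by -0.45 ± 0.15, which had an unadjusted p of 0.00793 and did not pass after adjustment (limma, adjusted p = 0.395).

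**Figure D2:**
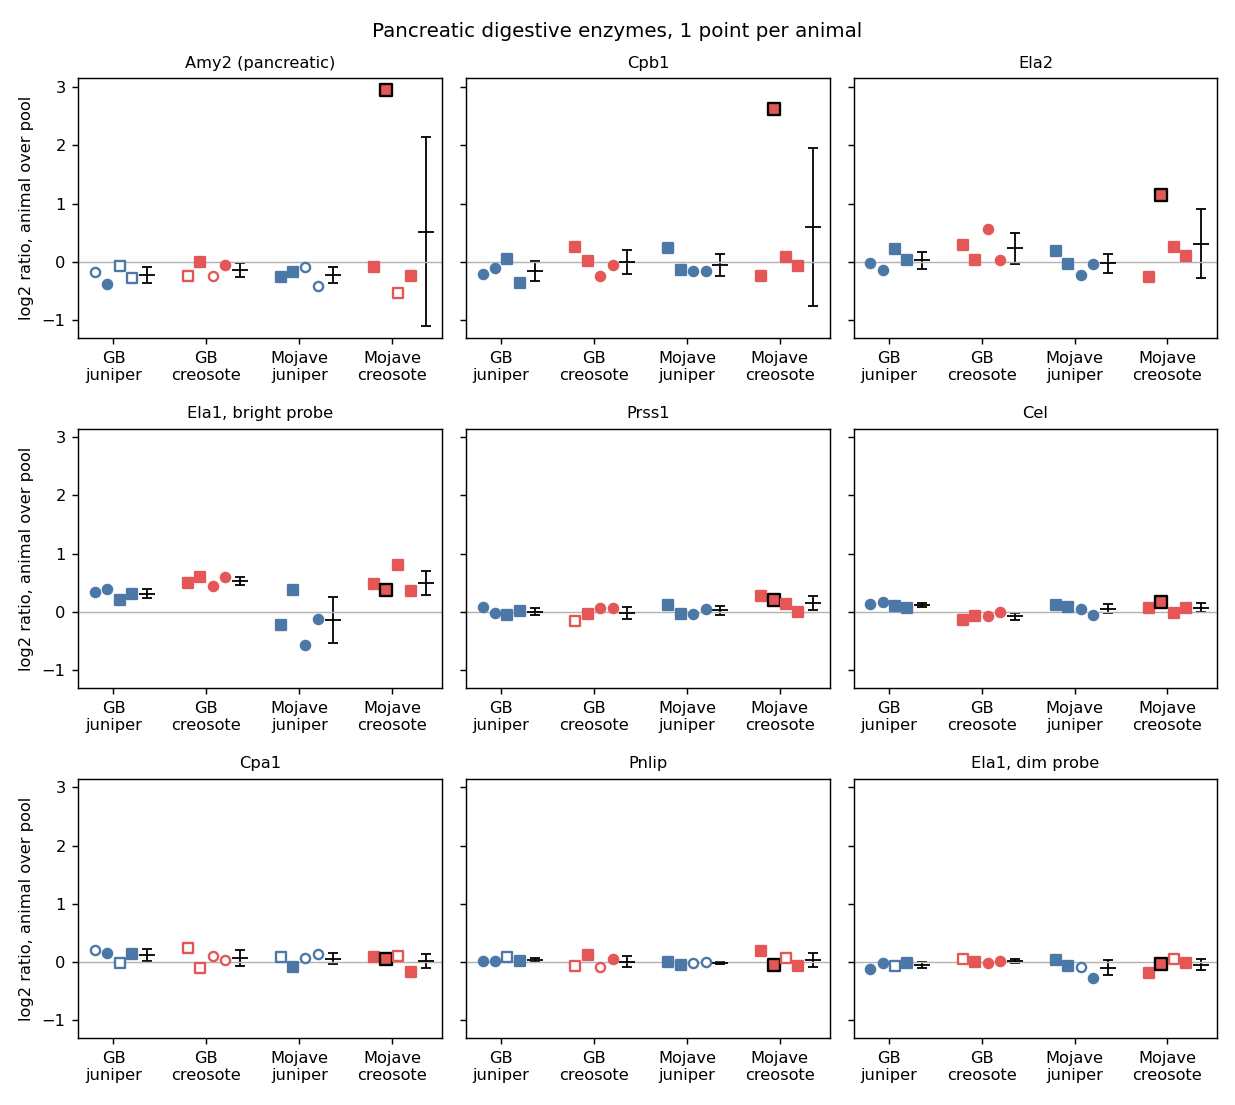
Log2 ratio of animal over pool (vertical axis) by group (horizontal axis; GB, Great Basin) for 9 probes of pancreatic enzymes. Squares are males, circles females, open symbols spots not well above background in red, the black edge marks Mojave creosote 2, and bars are means ± SD (n = 4); that animal stands apart for pancreatic Amy2 (2.95), Cpb1 (2.62) and Ela2 (1.14) and lies among the others in the other panels except that of Cel, where it is the highest by a narrow margin (0.17, next 0.16).

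Trypsinogen (Prss1), whose product activates the other proteases, was near 0 in every group, with log2 ratios from -0.17 to 0.27 over 16 animals. Mojave creosote 2 was the second highest of them, at 0.21. The diet difference was -0.02 in Great Basin and 0.16 in Mojave. On creosote, Mojave animals were higher than Great Basin animals by 0.20 ± 0.08 (unadjusted p = 0.0222; limma, adjusted p = 0.257), which failed the correction.

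Of the fat-digesting enzymes, pancreatic lipase (Pnlip) was dim, well above background on 10 of 16 arrays, and its ratios ran from -0.09 to 0.19 with Mojave creosote 2 at -0.06. Its diet differences were -0.03 in Great Basin and 0.04 in Mojave. The bile-salt-activated lipase Cel, which cleaves cholesterol esters, was well above background on 16 of 16 arrays. In Great Basin its log2 ratios were -0.15, -0.07, -0.08 and 0.00 on creosote and 0.13, 0.16, 0.10 and 0.07 on juniper. All 4 creosote animals lay below all 4 juniper animals, a diet difference of -0.19 ± 0.06 (SE, n = 4 per group), the opposite direction to the amylases. Within slides it ran from -0.24 to -0.13. The highest of 16 for Cel was Mojave creosote 2, at 0.17 beside 0.16 for the next animal. In Mojave the difference was 0.02 ± 0.07, with 2 of 4 slides in each direction, and median centring turned it to -0.35. Cel had an interaction of 0.21 ± 0.09 (unadjusted p = 0.0361; limma, adjusted p = 0.329) that failed the correction.

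**Figure D3:**
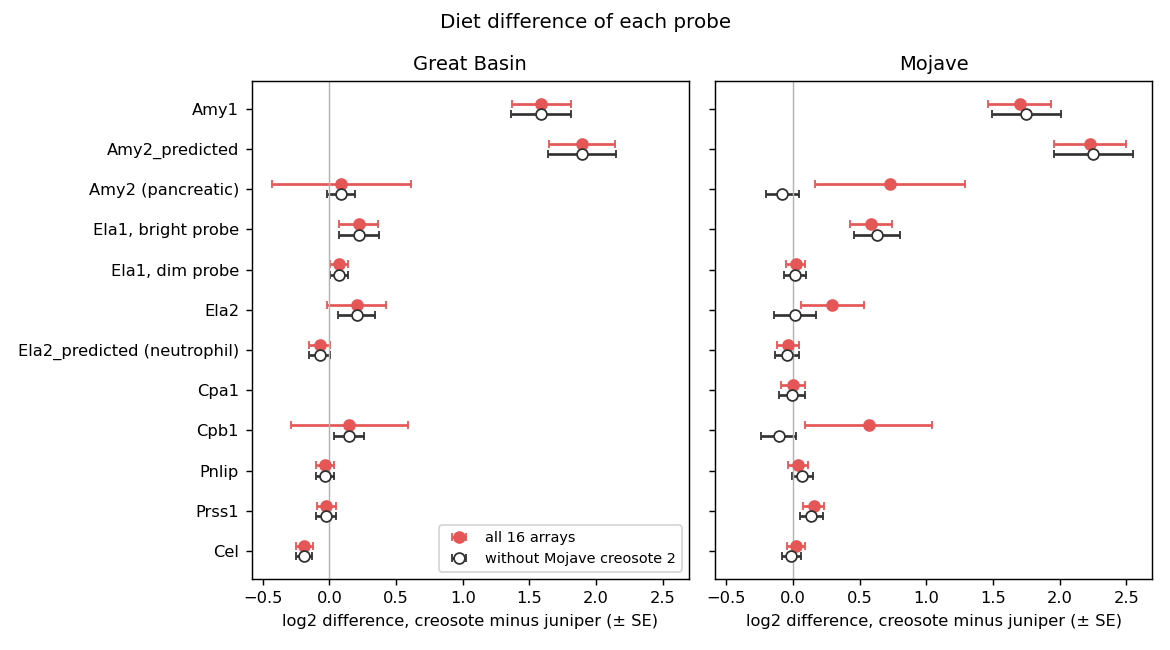
Log2 difference of creosote minus juniper ± SE (horizontal axis) for each probe (vertical axis), in Great Basin (left) and Mojave (right); filled points use all 16 arrays and open points leave out Mojave creosote 2. Amy1 and Amy2_predicted lie between 1.59 and 2.25, Mojave pancreatic Amy2 falls from 0.73 to -0.08 and Cpb1 from 0.57 to -0.11 without that animal, and Cpa1 has no Great Basin point because it was not above background there on creosote.

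Counted as genes by their brightest probe, 9 members were tested for population, interaction and sex. The interaction is computed from the diet differences of both populations, so it is not independent of the choice of the members. By limma, 0 of 9 passed an adjusted p of 0.05 between the populations on juniper, where 0.0113% of all genes did, and 0 of 9 on creosote, where 0.0716% did. For the interaction 0 of 9 passed, against a background of 0%, and for sex 0 of 9, against 0.00377%. At an unadjusted p under 0.05 the counts were 1 (Ela1), 2 (Prss1 and Cel), 1 (Cel) and 2 (Amy1 and Amy2). Over all genes this cutoff was reached, in the same order, by 2126 of 26513, 3743 of 26540, 3441 of 26512 and 1163 of 26534. With shares this low over all genes at the adjusted threshold, a count of 0 among 9 does not set the members apart.

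The high values of Mojave creosote 2 extended to other acinar genes. Of 26543 genes, 5 were at least 2-fold higher there than on any other array (0.0188%): Cpb1, chymotrypsinogen B (Ctrb), elastase 3B (Ela3b), Nploc4 and Dbil5. The first 3 encode pancreatic proteases; Nploc4 serves protein degradation and Dbil5 is known from testis. Such genes numbered 0 to 10 on the other arrays, with 10 on Mojave creosote 1, so that having a few is common. Ctrb, which the array lists in place of Ctrb1 and which was named after its values were seen, was at 2.14 on Mojave creosote 2 and at most 0.64 elsewhere, 2.83-fold lower. Its net red signal was 2679, against 168 to 731 elsewhere, leaving out 1 array where the spot was an outlier. Ela3b was at 1.32 there and at most 0.31 elsewhere, with a net red signal of 303 against 22.8 to 77.9.

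Of 39 acinar cell genes listed, 29 were on the array and 23 tested, 7 of them members. Mojave creosote 2 was the highest array for 10 of the 23; the other arrays were highest for 0 to 4. It was highest for 2007 of all 26543 genes. It was at least 2-fold above every other array for 2 of the 23, and each other array for 0. This animal was singled out by members such as Cpb1. Among the 16 acinar genes that are no members it was the highest array for 7 (0 to 4 on the others) and at least 2-fold above every other array for 1, Ela3b (0 on the others). Chymotrypsin-like protease Ctrl was at 0.81 there (next 0.63), chymotrypsin C (Ctrc) at 0.62 (0.43), anionic trypsinogen Prss2 at 0.28 (0.09), the pancreatic isomerase Pdia2 at 0.36 (0.08), the lipase Pnliprp2 at 0.27 (0.13) and the secreted lectin Reg3a at 0.46 (0.36). These are ratios, and in net red signal another array was brighter for all of these genes except Pdia2. The values there and on the brightest array were 208 and 218 (Ctrl), 173 and 179 (Ctrc), and 475 and 630 (Prss2). For Pnliprp2 they were 33.9 and 34.4, and for Reg3a 220 and 392. Pdia2 was dim, at 39.4 there, and well above background on 4 of 16 arrays. The median log2 ratio of the 23 genes was 0.21 on Mojave creosote 2 and -0.03 to 0.07 on the other 15 arrays; over the 16 that are no members it was 0.19, and -0.03 to 0.10 elsewhere. The rest of the list did not stand out there: colipase (Clps), Pnliprp1, Gp2, Reg1, Pap and Spink3 were not well above background on that array.

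**Figure D4:**
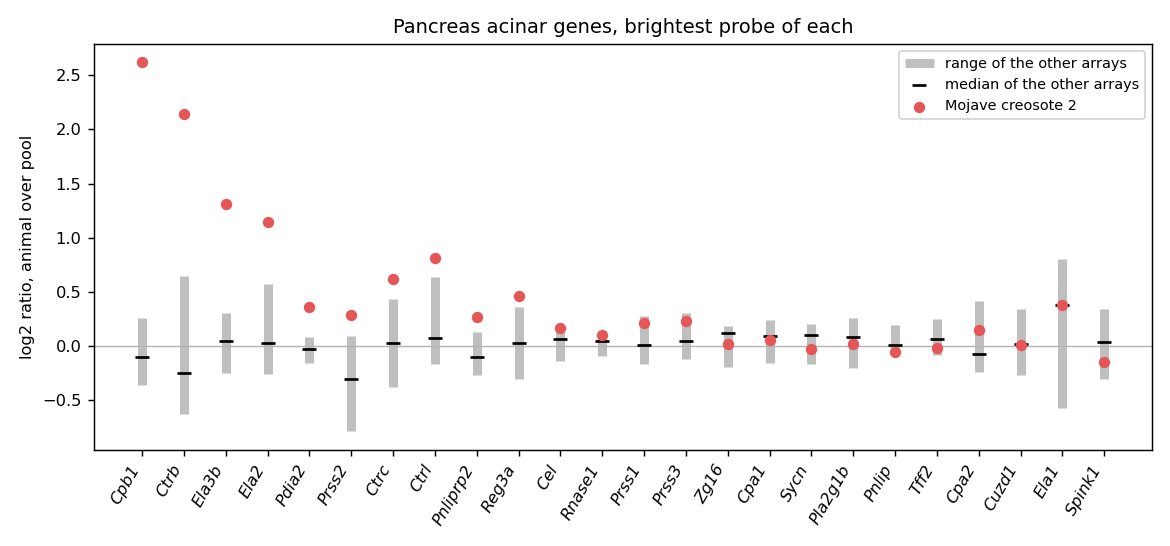
Log2 ratio of animal over pool (vertical axis) for the brightest probe of each acinar gene (horizontal axis): the 23 tested genes of the list and Ctrb, which was added after its values were seen. Red points are Mojave creosote 2, grey bars the range and black marks the median of the other 15 arrays (14 for Ctrb); Cpb1, Ctrb, Ela3b and Ela2 lie farthest above the bars, and that animal is the highest array for 10 of the 23.

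The green signal, which comes from the same pool on every array, was also higher on that array for these probes, at 75.3 for the pancreatic Amy2 probe against 10.8 to 36.1 elsewhere, and at 104 for Cpb1 against 15.4 to 45.6. No gene of the acinar transcription factor, islet, duct, salivary or intestine list was 2-fold above the other arrays on Mojave creosote 2. On that array 0.0188% of all genes met this rule, so a count of 0 does not set lists this short apart. Mojave creosote 2 was the highest array for the intestine genes Slc5a1 and Mep1a and for Tcf1 of the transcription factor list. The margins over the next array were small, at 0.08, 0.01 and 0.02 on the log2 scale. The islet genes Ins1, Ins2 and Gcg were at -0.01, 0.12 and -0.12 there. The acinar transcription factor Ptf1a was at -0.05. In a bulk sample, a few cells that make much of a transcript and many cells that make little of it cannot be told apart, and where in the tissue these transcripts came from was not tested.

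Of the 23 acinar genes, 7 are members, whose diet differences are not tested. Among the other 16, 0 passed for diet in Great Basin (limma; 3 at an unadjusted p under 0.05) and 0 in Mojave (limma; 1 at an unadjusted p under 0.05). Their median differences were 0.06 in Great Basin and 0.06 in Mojave, beside -0.01 and -0.00 over all genes, and 0.02 in Mojave without Mojave creosote 2. By limma, 0 of 7 acinar transcription factor and receptor genes, 0 of 14 islet genes, 0 of 4 duct genes and 0 of 5 salivary gland genes passed for diet in either population. At an unadjusted p under 0.05 there was 1 of the 7 in Great Basin, and 1 islet and 1 salivary gene in Mojave. Over all genes, 4500 of 26525 in Great Basin and 5863 of 26521 in Mojave reached this cutoff for diet by limma. In the fit without Mojave creosote 2, 1 of the 7 transcription factor and receptor genes was higher in Great Basin. Of 15 intestine genes 1 passed, the sugar transporter Slc5a1 in Mojave (0.36; limma, adjusted p = 0.0474), and it was lost without any of 11 animals, among them Mojave creosote 2 (limma, adjusted p = 0.127).

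Part of the hepatocyte markers were higher on creosote, as the bright amylase probes were. Of 13 tested, 5 were higher and 0 lower on creosote in Great Basin and 6 higher and 0 lower in Mojave, with list medians of 0.66 and 0.57. Without Mojave creosote 2 the counts were 6 and 8 higher. Median centring kept 5 higher in Great Basin but gave 4 higher and 2 lower in Mojave, with a list median of 0.16, and the red channel alone gave 4 and 3 higher. By animal, the list median lay between 0.25 and 0.64 on Great Basin creosote and between -0.18 and 0.03 on Great Basin juniper, and between 0.13 and 0.53 on Mojave creosote and between -0.13 and 0.10 on Mojave juniper. Albumin (Alb) was higher on creosote by 1.62 in Mojave (limma, adjusted p = 0.00415), and its difference in Great Basin was 1.00 (limma, adjusted p = 0.0658, not past the threshold). With the mean of its probes the differences were 0.85 in Mojave and 0.70 in Great Basin, the latter then past the threshold (limma, adjusted p = 0.0159), and with the red channel alone the Mojave difference of 1.07 did not pass (limma, adjusted p = 0.161). Tyrosine aminotransferase (Tat), which starts tyrosine breakdown, was higher by 1.41 in Great Basin and 0.96 in Mojave. In males alone, with fewer animals, the differences were 1.08 and 0.85, and neither passed (limma, adjusted p = 0.134 and 0.081). Transthyretin (Ttr), a carrier of thyroid hormone, was higher by 1.03 in Mojave (limma, adjusted p = 0.0155). This was lost without Mojave juniper 2 (limma, adjusted p = 0.0911) and with the red channel alone (0.114), and the Great Basin difference of 0.79 did not pass (limma, adjusted p = 0.0657). The gluconeogenic enzyme Pck1, named after its values were seen, was at -0.63 in Great Basin and -0.61 in Mojave and did not pass in either (limma, adjusted p = 0.341 and 0.34). The part of hepatocyte transcripts in the amylase difference was not tested.

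Genes that make and break down glycogen, amylase's other substrate, changed in both directions. Of 22 tested, 2 were higher and 1 lower on creosote in Great Basin, and 2 higher and 4 lower in Mojave (3 and 3 without Mojave creosote 2), with list medians of -0.02 and -0.05. Higher in both populations were glucose-6-phosphatase (G6pc; 1.36 ± 0.22 and 1.67 ± 0.24, SE), which releases glucose from the hepatocyte and is also one of the hepatocyte markers, and the glycogen-targeting phosphatase subunit Ppp1r3c (1.53 ± 0.20 and 1.26 ± 0.21). The mean of their probes gave 0.82 for G6pc in Great Basin and 0.98 and 0.77 for Ppp1r3c. Lower in both was liver glycogen synthase Gys2 by its brightest probe (-1.56 ± 0.21 and -1.06 ± 0.23); the mean of its probes gave -0.25 in Great Basin, which did not pass (limma, adjusted p = 0.629). In males alone, with fewer animals, Gys2 was at -1.52 in Great Basin and -1.01 in Mojave, and G6pc at 1.68 in Great Basin. None of these 3 passed (limma, adjusted p = 0.0648, 0.0621 and 0.0741). Phosphoglucomutase Pgm1 was lower in Mojave (-0.93; limma, adjusted p = 0.0417), and was lost without any of 12 animals, and in the deposited ratios (limma, adjusted p = 0.127).

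Among other lipases and ester hydrolases, 0 of 11 passed in Great Basin (limma; 1 at an unadjusted p under 0.05), and in Mojave 1 was higher and 2 lower. The higher one was hepatic lipase Lipc (1.10 ± 0.17, SE). The lower ones were hormone-sensitive lipase Lipe (-0.46) and the fat droplet lipase Pnpla2 (-0.78, limma, adjusted p = 0.0319). Lipe was lost under 7 of 28 alternatives, among them those without Mojave creosote 1 or Mojave juniper 2 (limma, adjusted p = 0.058 and 0.0701). The mean of its probes gave -0.23, and leaving out slide 1 gave -0.36 (limma, adjusted p = 0.134 and 0.118). It was also lost in the deposited ratios, with the red channel alone and in males alone. Pnpla2 was lost under 10 of 28, among them those without any of 7 Mojave animals, all except Mojave creosote 3. Of 19 secreted and lysosomal proteases, 0 passed in Great Basin (limma; 6 at an unadjusted p under 0.05) and 1 in Mojave. This was the liver's plasma carboxypeptidase Cpb2 (0.88 ± 0.25, SE; limma, adjusted p = 0.0373), lost without any of 9 animals (adjusted p up to 0.142) and with median centring (0.264). Over all genes, 4500 of 26525 reached an unadjusted p under 0.05 for diet in Great Basin by limma. In no list did a gene pass for population or for the interaction (limma).

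Likeness to the Amy2_predicted probe was measured by Pearson's r of the log2 ratios over 16 arrays, among 10112 genes with a symbol. The most alike were Amy1 (r = 0.99), the phosphatase Ptpn18 (0.95), the fatty acid elongase Elovl6 (0.94), the carotenoid-cleaving enzyme Bcdo2 (0.94), Adhfe1 (0.93) and Rp1l1 (0.93). These values contain the gap between the diets. With group means and sex taken out, the most alike were Amy1 (0.96), Olr1234 (0.86), Defb3 (0.85), Ndrg2 (0.84), Rps6kl1 (0.83) and Znrf4 (0.83). Both orders hold the highest of 10112 values over only 16 arrays. How high the top values would run by chance was not tested, so no relation to amylase is read from them. Amy1 led both orders, and none of the other genes named stood in both.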

How the data were processed

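Liver RNA of 16 woodrats was hybridised to 16 Agilent rat arrays with 2 dyes. The deposited scanner files hold spot signals as linear intensity, written by Agilent Feature Extraction 9.1.3.1 per the submitters' processing notes. The deposited series values, on a log2 scale, equal the ratio of the software's processed signals, red to green (largest difference 5e-10), without centring, and served as an alternative. Mean and background signals were reanalysed in R 4.3.3 with limma 3.58.1: normexp with an offset of 50, which draws ratios of dim probes towards 0, then loess within each array with control and outlier spots at no weight. Outlier spots were left out; no dye swap was made. A probe was kept when well above background in red on at least 4 of 16 arrays (30184 probes), and the brightest kept probe stood for its gene (26543 genes, 1639 control spots left out). Group means and a sex term were fitted to all 16 arrays. Tests were two-sided with Benjamini-Hochberg adjustment over all probes (members) or genes (lists) at 0.05. The fit was tested on simulated data. Correlations were tested by exact permutation (scipy 1.17.1).

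The members and the gene lists were chosen with earlier results of these data known. The text names all members, and up to 4 genes of each list past the threshold with the largest difference in a diet contrast. It also names the brightest genes of the cell type lists and the genes most like Amy2_predicted. Chosen after their values were seen were Ctrb, Pck1, Nploc4, Dbil5, Mep1a, Tcf1 and the acinar genes high in Mojave creosote 2. The limma p-values weigh a difference against the spread between animals of a group, estimated with information from all genes. The number of arrays limits their precision. No probe sequences were used here. The values of 1 gene counted in a list are not reported here. Alternatives were other backgrounds, centring, filters, probe rules, the red channel alone, blocks for slide and replicate number, no sex term, males alone, no slide 1 and leaving out each animal.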

Additional observations from a re-analysis of the deposited data

Results flagged for a closer look

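In 48 sets of 4 animals (12 probes in 4 groups), 4 held 1 animal far from the other 3, measured by its gap to the nearest of them over the whole range of the group; chance alone gives about 1 in 20. For the pancreatic Amy2 probe in Mojave creosote this share was 0.869, with Mojave creosote 2 at 2.95 and the others between -0.55 and -0.09. For Cpb1 in Mojave creosote it was 0.888, with the same animal at 2.62 and the others between -0.25 and 0.07. The other sets concern small differences. Cpb1 in Mojave juniper had a share of 0.957, with Mojave juniper 1 at 0.23 and the others between -0.16 and -0.14. Pnlip in Great Basin juniper had a share of 0.834, with Great Basin juniper 3 at 0.09, where the spot was not well above background, and the others between 0.01 and 0.02. For pancreatic Amy2, Cpb1 and Ela2, Mojave creosote 2 stayed highest with an offset of 10, with median centring and in the deposited ratios. With an offset of 10 the pancreatic Amy2 probe was at 3.41 there and at most -0.02 elsewhere. With median centring it was at 3.04 and -0.07, and in the deposited ratios at 3.81 and -0.23. For Cpb1 the pairs were 2.98 and 0.46, 2.71 and 0.36, and 3.35 and 0.57. For Ela2 they were 1.32 and 0.68 with an offset of 10, and 1.24 and 1.01 with median centring. In the deposited ratios that animal was also highest on 2 dim probes on which it was not highest in the main values. These were Cpa1 (2.47, next 1.78) and the dim Ela1 probe (0.36, next 0.25). It was not highest there for Prss1, Pnlip or the bright Ela1 probe. These settings were compared after seeing the data.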

How the results depend on the processing

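The number of members past the threshold for population on juniper, population on creosote and the interaction was 0 under all 28 alternatives, and for sex under all 26 that could be fitted. Creosote was higher for Amy1 and the brightest Amy2 probe in both populations under all 28. With median centring the Mojave difference was 1.82 for Amy2 and 1.28 for Amy1. With the mean of both kept probes Amy2 was at 0.99 in Great Basin and 1.48 in Mojave. In males alone the Great Basin difference was 2.48 for Amy2 and 2.16 for Amy1. Leaving out 1 animal at a time gave 1.68 to 2.18 (Amy2, Great Basin), 2.08 to 2.33 (Amy2, Mojave), 1.39 to 1.83 (Amy1, Great Basin) and 1.57 to 1.81 (Amy1, Mojave). Replicate numbers are shared between groups but did not pair the animals: over 24 same-numbered pairs the correlation of deviations ran from -0.17 to 0.14, and 3 exceeded 0.1. With the replicate number as a block the differences were 1.89 and 2.31 for Amy2 and 1.59 and 1.77 for Amy1 in Great Basin and Mojave, 0 members passed, and diet calls over all genes were 932 in Great Basin against 1062 without the block. The cause of these shifts was not tested.

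Over all genes, 51.6% of the Great Basin diet calls and 1013 of 2530 Mojave calls were higher on creosote; with median centring 63.4% in Great Basin and 13.6% in Mojave (648 of 4765), with the red channel alone 40.2% and 52.9%. The Mojave count was 2530, against 4765 with median centring, 1089 with red alone, 1628 in the deposited ratios, 1068 in males alone, and 1626 and 1580 without Mojave juniper 1 and 2. The Great Basin count of 1062 became 389 without slide 1, 152 in males alone, and 665, 630 and 646 without creosote 1, juniper 1 and juniper 4. Probes near background (pancreatic Amy2, Cpa1, Pnlip) limit what small differences can show. The list of hepatocyte markers and the other lists were compared under 4 scalings chosen after seeing the data.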
